A study of Mus musculus with 18 samples.

Results

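In livers of mice aged 21 months, the regions occupied by lamin B1 were compared with those carrying trimethylation of lysine 9 of histone H3 (H3K9me3). Chromosomes 1 to 19 were divided into 10 kb windows, on whose bounds all regions of both lists start and end, and each window was placed in 1 of 4 classes, with lamin B1 and H3K9me3 (both), lamin B1 only, H3K9me3 only or neither. Of 246285 windows, the 239597 in which at least 50% of the bases are known were compared, and just 14 of the 6688 left out held either mark. Chromatin came from snap-frozen livers of wild-type C57BL/6 males, and chromatin immunoprecipitation followed by sequencing (ChIP-Seq) was performed with a goat antibody to lamin B1 and a rabbit antibody to H3K9me3, with 2 replicates per antibody. The same marks in livers of mice aged 3 months served for comparison, as did Foxa2 sites in livers of wild-type and Zmpste24-deficient littermates aged 12 weeks. The authors merged the replicates before calling regions, so 1 list per antibody was available, no spread between mice can be given, and no test was made. The study reports correlations between replicates. That of old lamin B1 was lower than those of young lamin B1 and old H3K9me3. Shares carry 95% Wilson intervals, which cover counting error and are too narrow for neighbouring windows, and the spread over the 19 chromosomes is given as mean ± SD.

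Lamin B1 is a filament protein of the nuclear lamina, the meshwork beneath the inner nuclear membrane, and the stretches of chromatin that touch it are called lamina-associated domains. In cultured cells these domains are described as A/T-rich, poor in genes and largely silent. H3K9me3 is deposited by the methyltransferases Suv39h1, Suv39h2 and Setdb1 and is bound by heterochromatin protein 1. It marks pericentromeric repeats, retroelements and clusters of zinc finger genes, and is often found at the lamina together with H3K9me2.

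Promoters of 4 genes are shown as examples of the classes. Each runs from 250 bases before to 50 bases after the RefSeq start site on the strand of the gene (GRCm38.p6), with each CpG dinucleotide in capitals. Hnf4a (chr2:163506607-163506906, plus strand), a nuclear receptor that specifies hepatocytes, lay in windows with both. Apoa1 (chr9:46228380-46228679, plus strand), the main protein of high-density lipoprotein, lay in lamin B1 only. Sox11 (chr12:27342669-27342968, minus strand), a transcription factor of neural progenitors, lay in H3K9me3 only, and Alb (chr5:90460620-90460919, plus strand), which encodes serum albumin, in neither.
Hnf4a: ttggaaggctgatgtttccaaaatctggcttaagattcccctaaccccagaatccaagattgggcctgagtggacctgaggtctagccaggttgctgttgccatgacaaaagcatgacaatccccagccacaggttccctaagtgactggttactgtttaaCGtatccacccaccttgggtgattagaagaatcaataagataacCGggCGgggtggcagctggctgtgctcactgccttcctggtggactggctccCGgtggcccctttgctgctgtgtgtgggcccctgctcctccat
Apoa1: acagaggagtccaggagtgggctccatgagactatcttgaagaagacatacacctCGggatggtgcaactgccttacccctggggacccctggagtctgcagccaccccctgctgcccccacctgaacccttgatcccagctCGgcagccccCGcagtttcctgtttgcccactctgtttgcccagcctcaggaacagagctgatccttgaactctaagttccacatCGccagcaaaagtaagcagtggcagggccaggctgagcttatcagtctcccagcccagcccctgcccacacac
Sox11: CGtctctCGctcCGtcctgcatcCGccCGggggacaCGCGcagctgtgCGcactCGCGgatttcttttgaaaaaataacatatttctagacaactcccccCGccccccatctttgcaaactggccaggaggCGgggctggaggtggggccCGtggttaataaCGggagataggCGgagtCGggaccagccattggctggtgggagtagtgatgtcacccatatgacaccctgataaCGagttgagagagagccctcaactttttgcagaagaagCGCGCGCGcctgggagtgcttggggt
Alb: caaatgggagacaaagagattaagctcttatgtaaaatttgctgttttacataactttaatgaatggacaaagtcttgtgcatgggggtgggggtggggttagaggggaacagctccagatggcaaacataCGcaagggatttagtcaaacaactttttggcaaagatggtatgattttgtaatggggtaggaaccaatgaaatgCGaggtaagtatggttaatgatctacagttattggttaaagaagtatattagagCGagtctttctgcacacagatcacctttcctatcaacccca
The Hnf4a and Apoa1 promoters each hold 4 CpG in 300 bases, Sox11 holds 21 and Alb holds 3. GC content was 54.0% for Hnf4a, 59.3% for Apoa1, 58.7% for Sox11 and 40.0% for Alb.

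The old lamin B1 list held 1519 domains, of which 1517 lay on chromosomes 1 to 19, and the old H3K9me3 list held 2496 regions, of which 2492 did. Domains were 30 to 8550 kb long with a median of 340 kb, and H3K9me3 regions were 20 to 4000 kb long with a median of 160 kb. Lamin B1 was called in 38.8% of windows, H3K9me3 in 25.7% and both in 17.7%. In windows, 42469 had both, 50544 had lamin B1 only, 19161 had H3K9me3 only and 127423 had neither. These classes cover 424.69, 505.44, 191.61 and 1274.23 Mb.

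H3K9me3 lay mostly within lamin B1 domains. It was called in 45.7% of lamin B1 windows (interval 45.3 to 46.0%) and in 13.1% of the other windows (12.9 to 13.2%), a difference of 32.6 percentage points. Read the other way, 68.9% of H3K9me3 windows had lamin B1, against 28.4% of windows without H3K9me3. Even so, more than 50% of lamin B1 windows lacked a call for H3K9me3. The H3K9me3 list holds fewer regions than the study describes, so a window without H3K9me3 is one without a region in this list. The antibodies were used on separate portions of whole liver, so a window with both in the same cells and a window with each in different cells cannot be told apart.

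The difference had the same sign on 19 of 19 chromosomes. Over chromosomes, the H3K9me3 share was 45.2 ± 8.27% in lamin B1 windows and 13.5 ± 3.36% elsewhere (SD, n = 19 chromosomes), and the difference was 31.6 ± 7.51 percentage points. It was smallest on chromosome 14 (20.5) and largest on chromosome 5 (45.4). Within lamin B1 domains the H3K9me3 share ran from 32.2% on chromosome 6 to 59.9% on chromosome 8. Outside them it ran from 6.21% on chromosome 6 to 19.2% on chromosome 17. Windows with both made up 10.5% of chromosome 14 and 26.9% of chromosome 17, the lowest and highest shares. Lamin B1 itself ranged from 27.3% of chromosome 3 to 58.0% of chromosome 11.

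**Figure D1:**
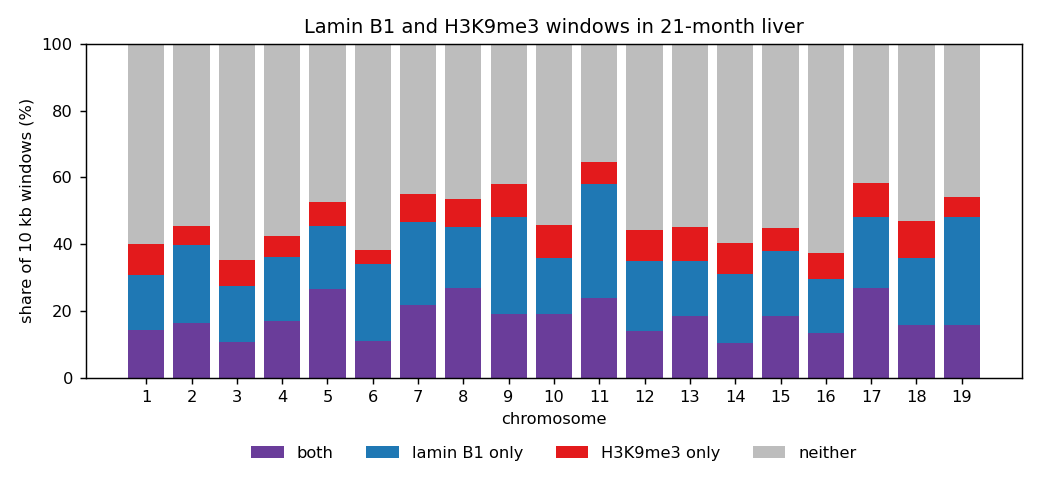
Share of 10 kb windows (%, y axis) in each of the 4 classes on chromosomes 1 to 19 (x axis) in livers aged 21 months, as stacked bars that sum to 100%. Windows with both (bottom) range from 10.5% on chromosome 14 to 26.9% on chromosome 17, and lamin B1 only is widest on chromosome 11.

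Windows with lamin B1 were rich in GC, with or without H3K9me3, unlike the A/T-rich domains described in cultured cells. Mean GC content was 46.4 ± 3.43% in windows with both and 45.4 ± 3.44% in lamin B1 only, against 41.1 ± 2.41% in H3K9me3 only and 39.2 ± 2.79% in neither (SD over windows). CpG dinucleotides, the sites of DNA methylation, numbered 12.1 per kb in both, 11.5 in lamin B1 only, 7.39 in H3K9me3 only and 6.28 in neither. Repeats, taken as the soft-masked bases of the reference, made up 25.3% of windows with both, 27.4% of lamin B1 only, 33.0% of H3K9me3 only and 38.7% of neither. H3K9me3 windows were thus richer in GC and poorer in repeats than windows of the same lamin B1 state without the mark. The GC difference between both and lamin B1 only was 1.04 percentage points over all windows and 0.978 ± 0.569 over chromosomes, above 0 on 18 of 19. On chromosome 14 it was -0.0144. Outside the domains, H3K9me3 only exceeded neither by 1.87 ± 0.410 points, above 0 on 19 of 19 chromosomes. The repeat share of windows with both minus that of lamin B1 only was -2.24 ± 1.12 percentage points over chromosomes, and below 0 on 18 of 19. The part of base composition and of unique alignment in the calls was not tested.

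Because lamin B1 windows and H3K9me3 windows were both GC-rich, the H3K9me3 share was compared at matched GC content. In each of the 12 bins of 1 percentage point from 37 to 49% GC with at least 200 windows of either kind, H3K9me3 was more frequent with lamin B1 than without it, by 10.9 to 38.8 points. Over all bins that held windows with and without lamin B1, not just these 12, the difference weighted by lamin B1 windows was 24.5 percentage points in place of 32.6. This includes bins above 49% GC, which each held at most 158 windows without lamin B1 and mostly showed larger differences. With lamin B1 the H3K9me3 share was larger at higher GC over most of the range, whereas without lamin B1 it was highest between 43 and 45% GC and lower on both sides. Windows without a protein-coding start site had H3K9me3 in 47.3% of cases with lamin B1 and 13.2% without. With 1 start site the shares were 35.2% and 10.9%, and with 2 or more they were 28.1% and 9.87%.

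**Figure D2:**
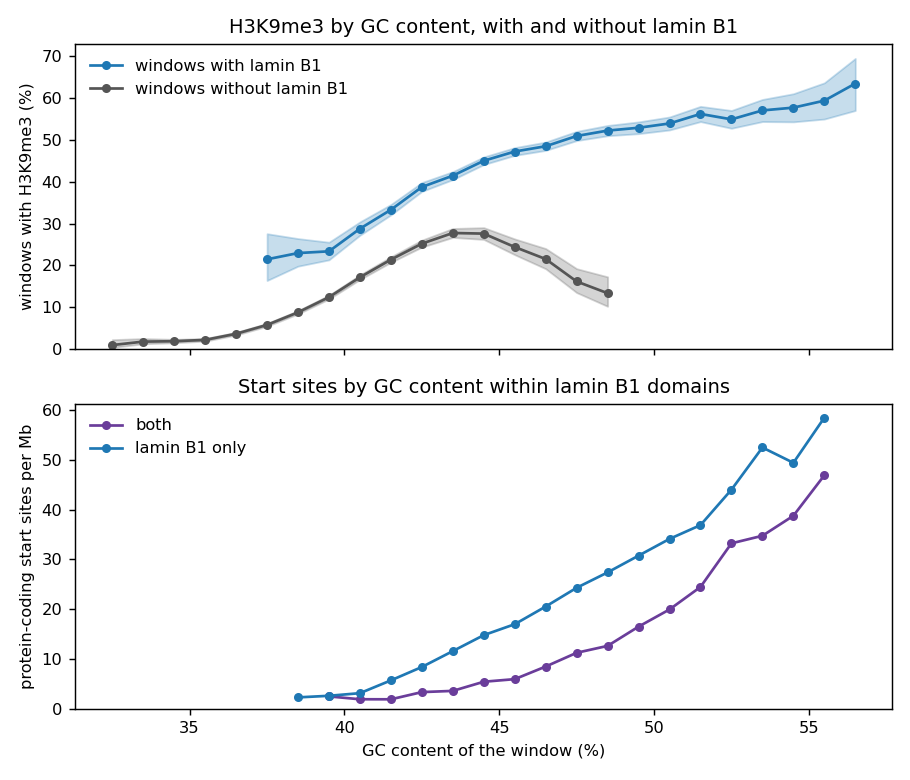
Top, share of windows with H3K9me3 (%, y axis) by GC content of the window (%, x axis) with and without lamin B1, with 95% Wilson intervals shaded, and bottom, protein-coding start sites per Mb in windows with both and in lamin B1 only, for bins of at least 200 windows. The lamin B1 line lies above the other in all 12 bins where both are drawn, and windows with both hold fewer start sites than lamin B1 only in 17 of 17 bins.

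Genes were dense in lamin B1 windows and sparser where H3K9me3 was also called. Start sites of protein-coding genes numbered 10.8 per Mb in windows with both (4574 sites), 18.0 in lamin B1 only (9089), 4.01 in H3K9me3 only (768) and 5.0 in neither (6374). Of all 20805 start sites, 22.0% thus fell in both, 43.7% in lamin B1 only, 3.69% in H3K9me3 only and 30.6% in neither. The density in both over that in lamin B1 only was 0.599 over all windows and 0.594 ± 0.0900 over chromosomes, and was below 1 on 19 of 19. It ran from 0.470 on chromosome 3 to 0.785 on chromosome 19. At matched GC content the ratio was below 1 in 17 of 17 bins from 39 to 56% GC, between 0.310 and 0.952. Outside lamin B1, the density in H3K9me3 only over that in neither was 0.823 ± 0.336, below 1 on 16 of 19 chromosomes and 1.95 on chromosome 18, which carries the clustered protocadherins. Protein-coding gene bodies touched 56.4% of windows with both and 70.8% of lamin B1 only, against 34.6% of H3K9me3 only and 36.3% of neither. Median gene length was 16.6 kb in both, 18.9 kb in lamin B1 only, 20.6 kb in H3K9me3 only and 15.5 kb in neither.

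Promoters followed the lamin B1 state more than the H3K9me3 state. RefSeq promoters were matched by symbol for 15685 genes, of which 13116 lay within 500 bases of the GENCODE start. A promoter was called CpG-rich at a GC content of at least 50% and an observed over expected CpG ratio of at least 0.6. This held for 55.6% of promoters in both (53.8 to 57.3%), 63.2% in lamin B1 only (62.0 to 64.4%), 33.2% in H3K9me3 only (28.9 to 37.8%) and 34.5% in neither (33.0 to 36.1%), against 52.7% of all. The median number of CpG was 17, 19, 10 and 6 in that order of classes. Of the promoters printed above, Sox11 is richer in CpG than the median of its class, and Hnf4a, Apoa1 and Alb are poorer.

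Gene families differed widely in their class. Counts are of start sites, and 25.7% of all protein-coding start sites had H3K9me3 and 65.7% had lamin B1. The class with neither held 30.6% of these start sites and 53.2% of all windows. Families that lie in clusters share windows and runs, so their members are not independent of each other.

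Zinc finger genes (symbols Zfp, Zscan, Zkscan and Zik1), many of which encode repressors of retroelements, had H3K9me3 at 209 of 416 start sites (50.2%, interval 45.5 to 55.0%). Of the 416, 132 lay in both, 111 in lamin B1 only, 77 in H3K9me3 only and 96 in neither. H3K9me3 was thus frequent outside lamin B1 as well as inside. At the ends of these genes, where the zinc finger exons usually lie, the share with H3K9me3 was 57.9%, against 28.0% of all protein-coding gene ends. Chromosome 7 held the most members, 106, and 63 of them had H3K9me3, 45 with lamin B1. On chromosome 13, 28 of 41 had the mark, and 24 of these were in H3K9me3 only. On chromosome 17, with 47 members, 21 had it, and on chromosomes 8 and 9, 18 of 24 and 14 of 20. The mark was at 9 of 23 on chromosome 11, 4 of 17 on chromosome 6, 0 of 5 on chromosome 12 and 0 of 4 on chromosome 1. Members in the longest runs were Zfp64, Zfp11, Zfp507 and Zfp423 for both, Zfp281, Zfp385c, Zfp710 and Zscan2 for lamin B1 only, and Zfp120, Zfp937, Zfp442 and Zfp345 for H3K9me3 only.

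Hox and keratin genes lay in lamin B1 domains, mostly with H3K9me3, and collagen and protocadherin genes also carried the mark more often than all genes. All 39 Hox genes, which pattern the body axis, had lamin B1, and 33 also had H3K9me3. The 9 Hoxc and the 9 Hoxd genes were in both. Members in lamin B1 only included Hoxb6, Hoxb7, Hoxb8 and Hoxb9. Keratin genes, which encode filament proteins of epithelia, had lamin B1 at 52 of 53 start sites, with 35 in both and 17 in lamin B1 only, and Krt6b was in neither. Krt7 and Krt80 shared a run with both of 790 kb, and Krt1, Krt4, Krt76 and Krt77 a run with lamin B1 only of 760 kb. Of 43 collagen genes, 17 were in both (among them Col13a1 and Col5a1), 14 in lamin B1 only, 3 in H3K9me3 only and 9 in neither, including Col3a1. The 57 clustered protocadherins, adhesion proteins of neurons on chromosome 18, had H3K9me3 at 55 start sites. Of these, the 21 of the Pcdhg cluster were in both and 34 of the Pcdha and Pcdhb clusters in H3K9me3 only, while Pcdhac1 and Pcdhac2 were in neither. Of the 57 protocadherin ends, 22 (38.6%) had H3K9me3, and 0 lay in both. The Pcdha and the Pcdhg genes share an end within each cluster, which is counted once per gene.

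Genes of the ribosome, respiratory complex I and the proteasome lay mostly in lamin B1 only. Of 79 genes of cytosolic ribosomal proteins, 50 were in lamin B1 only, 22 in both, 2 in H3K9me3 only (Rpl10l and Rpl39l) and 5 in neither. Nduf genes, for subunits and assembly factors of respiratory complex I, numbered 28 of 44 in lamin B1 only and 8 in both. Psm genes, mostly for proteasome subunits, numbered 32 of 49 and 6. Among membrane transporters, solute carriers had 181 of 358 members in lamin B1 only and 96 in both, with Slc6a4, the serotonin transporter, in the former and Slc6a3, the dopamine transporter, in the latter. ABC transporters, with 21 of 48 in lamin B1 only and 9 in both, were near the shares of all protein-coding start sites, 43.7% and 22.0%.

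Olfactory and vomeronasal receptors, major urinary proteins, histones, defensins and keratin-associated proteins were largely in neither. Olfactory receptors had 984 of 1128 start sites in neither, 64 in H3K9me3 only, 44 in lamin B1 only and 36 in both. None of the 208 Vmn1r or 121 Vmn2r vomeronasal receptors had lamin B1, and 30 and 7 of them had H3K9me3. Major urinary protein genes, expressed in male liver, had 20 of 22 in neither, with Mup5 in both and Mup21 in H3K9me3 only. Histone genes had 54 of 66 in neither and 12 in lamin B1 only. Defensins had 47 of 64 in neither. Keratin-associated proteins, for hair fibres, had 36 of 57. Trace amine receptors, also clustered, had 8 of 15 in lamin B1 only and 7 in neither. Several of these families consist of near-identical copies, in which reads that align to 1 place are scarce, and the part of this in the calls was not tested.

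Families of liver metabolism were split. Of 100 cytochrome P450 genes, 57 were in neither, 23 in lamin B1 only, 16 in both and 4 in H3K9me3 only. Cyp1a1 and Cyp1a2, which oxidise xenobiotics, lay in lamin B1 only, Cyp46a1, the cholesterol 24-hydroxylase, in both, and Cyp2j7, Cyp2j11, Cyp2j12 and Cyp2j13 in neither. Genes of conjugation (Ugt, Gst and Sult) had 42 of 66 in neither, 20 in lamin B1 only, 3 in both and 1 in H3K9me3 only. Serpins, protease inhibitors that include abundant plasma proteins, had 36 of 60 in neither and 20 in lamin B1 only, and 4 had H3K9me3.

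**Figure D3:**
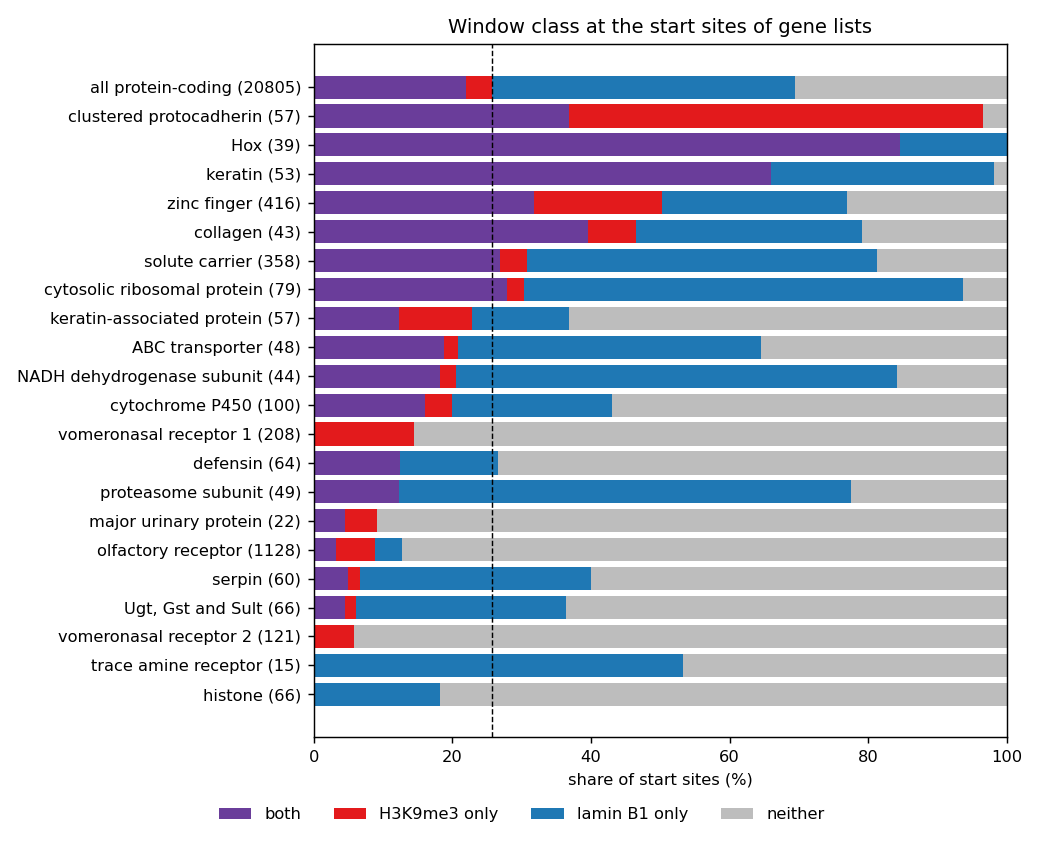
Share of start sites (%, x axis) in each window class for 21 gene lists and all protein-coding genes (y axis, number of members in parentheses), ordered by the share with H3K9me3, which is the sum of the bars for both and H3K9me3 only. The dashed line marks 25.7%, the share over all protein-coding genes, and protocadherins, Hox, keratin and zinc finger genes extend farthest past it.

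Over all protein-coding start sites, 25.7% had H3K9me3, 43.7% were in lamin B1 only and 30.6% in neither. Among 18 genes of hepatocyte identity, Hnf4a was the 1 member with H3K9me3 at its start site. It lay 740 kb inside a domain, and H3K9me3 was called in 12.5% of the windows that its body touches. The mark was also called in 12.5% of the windows touched by the body of Ppara, whose start site lacked it. In lamin B1 only were 10 genes, among them Ttr and Apoa1, for plasma transport proteins, the transcription factors Cebpa, Foxa1 and Foxa3, and the nuclear receptors Ppara, Nr1h3, Nr1h4 and Rxra, which sense fatty acids, oxysterols, bile acids and retinoids. Of these 10, Foxa1 was closest to an edge, at 30 kb, and Rxra farthest from one, at 890 kb. In neither were 7 genes, Alb, Afp, Apob, Fgb, Serpina1a, Foxa2 and Pparg. Alb lay 1250 kb from the nearest domain and Pparg 10 kb.

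A list of 12 genes covered the nuclear lamina and factors associated with it, Zmpste24, Hdac3 and Srf among them. Of these 12, 10 had lamin B1, against 65.7% of all protein-coding start sites. Lmnb2, for lamin B2, Sun2, which links the lamina to the cytoskeleton, and the transcription factor Srf were in both, with H3K9me3 over 100% of each gene body. Lmna, Lmnb1, Lbr, Tmpo, Sun1, Banf1 and the histone deacetylase Hdac3 were in lamin B1 only. H3K9me3 was called in 75% of the windows that the Lbr body touches, 60% for Sun1 and 33.3% for Lmnb1, although their start sites lacked it. Lemd3 and Zmpste24 were in neither, next to a domain and 30 kb from one. Of 17 genes that write, read or erase H3K9 methylation on these chromosomes, Ehmt2, which makes H3K9me2, the demethylase Kdm4b and the Setdb1 cofactor Atf7ip were in both. In lamin B1 only were 9 genes, the methyltransferases Suv39h2, Setdb1 and Ehmt1, the corepressor Trim28, the readers Cbx1, Cbx3 and Mphosph8, and the demethylases Kdm4a and Kdm4d. Setdb2, Cbx5, Kdm3a, Kdm4c and Morc2a were in neither, and Atrx, on chromosome X, was not placed. No gene of these 3 lists was in H3K9me3 only, which held 3.69% of all protein-coding start sites. Of all such sites, 22.0% were in both and 43.7% in lamin B1 only. The lists are small, and their counts were not tested against these shares.

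Foxa2, a pioneer factor that opens chromatin at liver genes, was compared as a readout from other animals. In wild-type livers aged 12 weeks its sites numbered 4.41 per Mb in lamin B1 only, 2.16 in both, 1.21 in neither and 1.12 in H3K9me3 only, against 2.05 over all windows. Among sites over 5 kb from a start site the order of the first 2 was kept, with 3.07 per Mb in lamin B1 only and 1.73 in both, while H3K9me3 only and neither had 1.02 and 1.03. In Zmpste24-deficient livers, which lack the protease that matures lamin A, the densities were 5.22 in lamin B1 only, 3.24 in both, 2.81 in neither and 2.38 in H3K9me3 only, against 3.36 overall. In each genotype the sites were thus sparser in windows that had both in old livers than in those with lamin B1 only. The classes are those of old livers. Of the windows with both, 11% had both in livers aged 3 months, and of those with lamin B1 only, 38.7% had lamin B1 only.

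H3K9me3 covered domains unevenly. The median domain was covered over 34.2% of its length (quartiles 0 and 68.9%). Of 1517 domains, 499 (32.9%) had no H3K9me3, 123 (8.11%) were covered throughout and 606 (39.9%) over at least 50%. Short domains were mostly all or none, but the median H3K9me3 region, at 160 kb, was longer than any domain of 30 to 90 kb. The part of region length in this pattern was not tested. Of the 163 domains of 30 to 90 kb, 60.1% had none and 27.6% were fully covered. Of the 509 of 100 to 290 kb, these shares were 48.3% and 12.4%, and of the 595 of 300 to 990 kb, 24.4% and 2.52%. Of the 250 domains of 1000 kb or more, 4.0% had none, 0 were fully covered and the median coverage was 52.3%. Of the total length, H3K9me3 covered 34.6, 34.8, 37.6 and 53.4% in these 4 classes of length, and median GC content was 43.7, 43.8, 44.7 and 46.2%. Domains with at least 50% coverage held 12.6 start sites per Mb, against 16.8 in those with less and 16.2 in those with none.

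The longest domain, chr5:116100001-124650000 (8550 kb, mm10), held 126 protein-coding start sites and was covered by H3K9me3 over 66.5%. The next, chr8:115810001-123540000 (7730 kb, 97 start sites), was covered over 68.3%, and the domain chr2:26780001-34220000 (7440 kb, 143 start sites) over 39.0%. Among domains of 500 kb or more, the 3 longest that H3K9me3 covered throughout were chr7:64500001-65320000 with Apba2, Nsmce3 and Fam189a1, chr5:130510001-131240000 with no protein-coding start site, and chr10:77810001-78520000 with 22, among them Trpm2, Pfkl and Dnmt3l. The 3 longest domains without any H3K9me3 were chr11:75100001-77190000, chr16:10240001-12270000 and chr5:34760001-36630000. The first held 41 start sites, including the tumour suppressor Hic1, the single-strand DNA binding protein Rpa1 and the splicing factor Prpf8. The second held 24, including the MHC class II activator Ciita, the cytokine inhibitor Socs1 and the protamines Prm1, Prm2 and Prm3. The third held 21, including Htt, the gene of Huntington disease, and Acox3, a peroxisomal acyl-CoA oxidase.

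Runs of consecutive windows of a class had medians of 150 kb for both, 130 kb for lamin B1 only, 100 kb for H3K9me3 only and 160 kb for neither. The longest with both was chr12:105840001-108550000 (2710 kb, GC 47.1%), with 9 start sites, among them Vrk1, Bcl11b, a T-cell and neuronal transcription factor, and Cyp46a1. It was followed by chr4:152240001-154840000 (2600 kb, 24 start sites), with Chd5, Trp73, a relative of p53, and Prdm16, and by chr5:118600001-121160000 (2560 kb, 25 start sites), with Tbx3, Tbx5, Lhx5 and the Oas antiviral genes. The longest with H3K9me3 only, chr12:26570001-27660000 (1090 kb, GC 42.3%), held the single start site of Sox11. The next, chr2:76030001-76980000, held 8, including Pde11a and Prkra, and the third, chr2:149670001-150570000, held 12, including Zfp120, Zfp937, Zfp442 and Zfp345. The longest with neither, chr15:40190001-51910000, spanned 11720 kb at 37.5% GC and held 19 start sites, among them Zfpm2, Angpt1, Rspo2, Csmd3 and Trps1.

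The H3K9me3 share was lower at domain edges than deeper inside. It was 34.4% within 50 kb inside an edge, 40.0% at 50 to 100 kb, 42.8% at 100 to 200 kb, 46.6% at 200 to 500 kb, 53.2% at 500 to 1000 kb and 60.2% beyond 1000 kb. Outside, it was 21.5% in the first 50 kb, 23.9% at 50 to 100 kb, 24.4% at 100 to 200 kb, 20.4% at 200 to 500 kb, 11.9% at 500 to 1000 kb and 6.06% beyond. Windows outside the domains thus carried H3K9me3 more often when a domain was near. The lowest value near an edge was 19.1%, at 20 to 30 kb outside. GC content also differed, from 38.2% in the farthest windows outside to 41.1% in the 50 kb next to a domain, 44.0% in the first 50 kb inside and 48.3% beyond 1000 kb inside. Start sites were densest in the outermost window of a domain, at 21.2 per Mb, against 10.8 in the window just outside. The part of GC content in the edge profile was not tested.

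**Figure D4:**
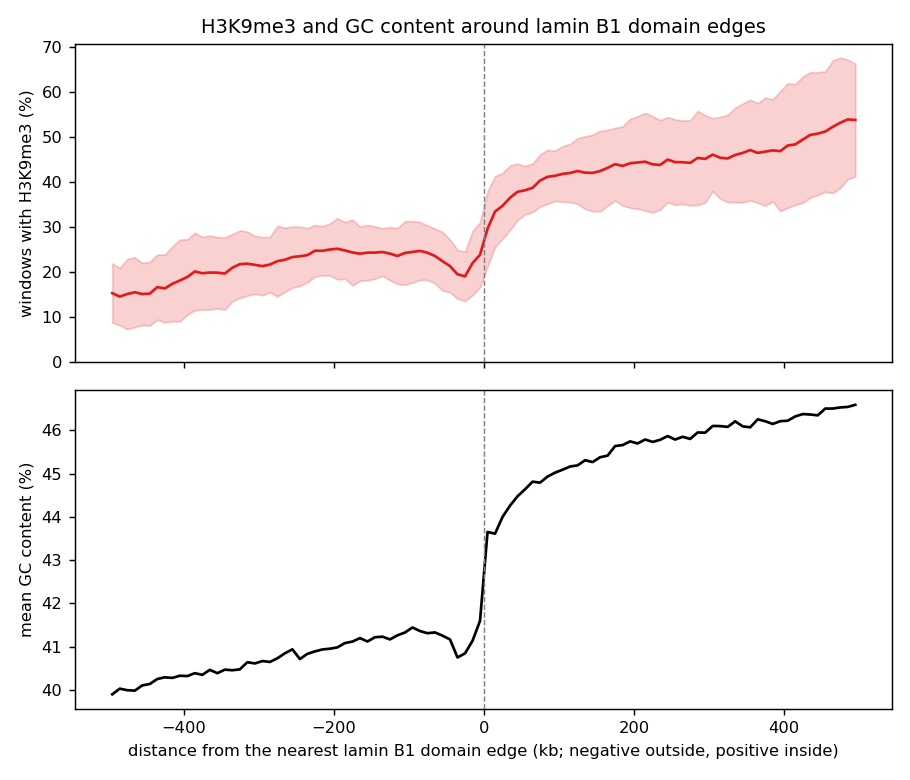
Share of windows with H3K9me3 (%, top, shading is ± 1 SD over 19 chromosomes) and mean GC content (%, bottom) against distance from the nearest lamin B1 domain edge (kb, x axis, negative outside and positive inside). H3K9me3 stands at 19.1% at 20 to 30 kb outside and at 29.7% in the first window inside, and both curves are higher farther into the domain.

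Since windows far from an edge exist in long domains only, positions were compared within domains of similar length. In domains of 100 to 290 kb the H3K9me3 share was 31.7% in the first 30 kb and 37.6% at 100 to 200 kb from an edge, in domains of 300 to 990 kb it was 31.2% and 39.6%, and in domains of 1000 kb or more 37.4% and 50.7%. Over the 1354 domains of at least 100 kb, divided into 10 parts of equal length, H3K9me3 was called in 41.4% of windows in the outermost parts and 47.8% in the central parts, a difference of -6.38 percentage points. By length class the difference was -7.56, -4.26 and -7.63 points. Between the first 30 kb and windows 100 kb or more from an edge, which come mostly from long domains, it was -16.5 points. Not all single domains shared this order. Of 845 domains of 300 kb or more divided into 3 equal parts, 348 had more H3K9me3 in the middle part, 319 had more in the outer parts and 178 had equal shares, with a median difference of 0. Parts cannot differ in domains without H3K9me3 or covered throughout, and these are included. They numbered 145 and 15 of the 595 domains of 300 to 990 kb. Of the 250 domains of 1000 kb or more they numbered 10 and 0.

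**Figure D5:**
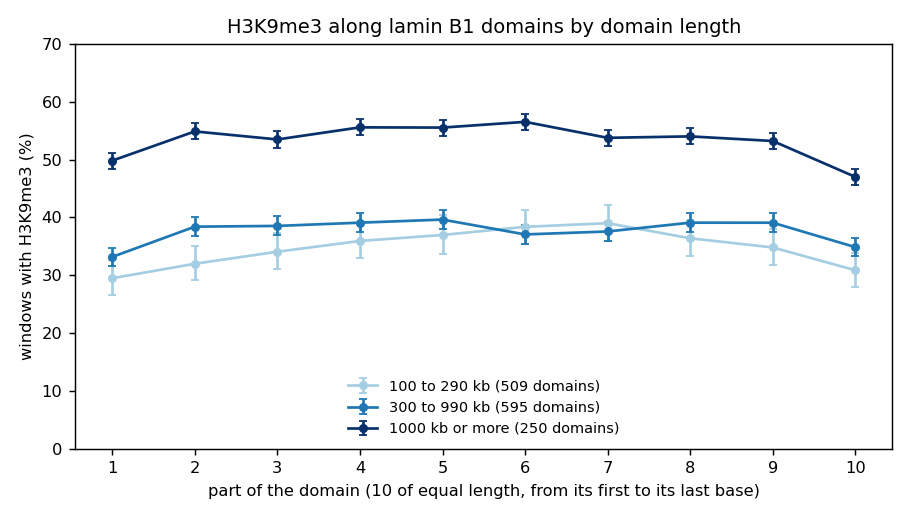
Share of windows with H3K9me3 (%, y axis) in 10 parts of equal length from the first to the last base of the domain (x axis), for 3 classes of domain length, with 95% Wilson intervals as bars. Domains of 1000 kb or more lie above the others, and in each class the 2 end parts hold less H3K9me3 than the central parts, with differences of -7.63 to -4.26 percentage points.

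Of the 2492 H3K9me3 regions, 1172 (47.0%) lay wholly inside a lamin B1 domain, 512 (20.5%) partly and 808 (32.4%) wholly outside. Regions inside had a median length of 170 kb and a GC content of 46.8 ± 2.71%, those crossing an edge 255 kb and 43.6 ± 1.89%, and those outside 120 kb and 40.5 ± 1.82% (SD over regions). Ends of the lists coincided at some places. Of 4984 H3K9me3 ends, 200 fell on the same 10 kb window bound as a lamin B1 edge of the same side. At each 10 kb step of offset between 100 and 200 kb, the median was 40 and the maximum 57. Ends that met a lamin B1 edge from the other side, as where H3K9me3 stops at the start of a domain, numbered 12, against a median of 47.5 and a minimum of 29. In 19 cases the region and the domain had the same start and end.

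In livers aged 3 months H3K9me3 was about as frequent outside lamin B1 as inside. It was called in 24.1% of young lamin B1 windows and 24.0% of the other windows, a difference of 0.0735 percentage points, or 0.848 ± 4.53 over chromosomes, with 14 above and 5 below 0. The young lists covered 19.5% of windows with lamin B1 and 24.0% with H3K9me3. Of the windows with both in old livers, 11% had both in young livers, 16.9% had lamin B1 only, 23.3% had H3K9me3 only and 48.8% had neither. Of the windows with H3K9me3 only in old livers, 43.9% had H3K9me3 only in young livers and 46.0% had neither. Of those with lamin B1 only, 38.7% had lamin B1 only and 54.2% had neither. The young and old libraries differed in depth, with more H3K9me3 reads and fewer lamin B1 reads in the old ones, and with 1 merged list per age this difference and that of age cannot be told apart.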

How the data were processed

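Per the study's methods, the authors aligned ChIP-Seq reads from liver to mm10 with BWA v0.7.12, removed duplicates with Picard v1.134, kept uniquely aligned reads, merged the 2 replicates of each antibody and age, and called lamin B1 domains with Epic in 10 kb windows. Foxa2 sites were called with PeakSeq against input, after mutant reads were thinned to the wild-type number. Input was a mixture from young and old livers. The caller of the H3K9me3 regions is not given in the sources used here, and the labels list SICER without a role. The deposited lists hold positions only, with no signal, score or count per replicate, and the H3K9me3 lists of both ages hold far fewer regions than the study gives. The age of these lists was taken from their names. Read depth per replicate is unknown, and H3K9me2 was not analysed here.

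Windows were kept when at least 50% of bases were known. Base composition and soft-masked repeats came from GRCm38.p6, genes from GENCODE vM21 and promoters from RefSeq. A gene was placed by the window of its start site, and distances count whole windows between it and the edge. Python 3.11.15, numpy 2.4.6, pandas 2.3.3 and matplotlib 3.10.9 were used, and the window code was tested on simulated data. The classes, gene lists and named regions (the 3 longest runs per class, the 3 longest, most covered and least covered domains, up to 4 list members per class in the longest runs, and the genes of 3 short lists, of which some are not reported here) were chosen with earlier results of these data known. The printed promoters were chosen after their classes were seen. Alternatives covered the filter, chromosomes, region lengths, edges, GC content and the placement of genes.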

Additional observations from a re-analysis of the deposited data

How the results depend on the processing

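Of 39 alternatives for the 8 main values, 21 stayed within the interval or chromosome spread of the value reported, and 0 turned the direction of a difference or ratio. Without the filter on unknown bases, H3K9me3 covered 12.5% of windows without lamin B1 and the difference from lamin B1 windows was 33.2 percentage points. With chromosome X added these were 11.8% and 33.9 points. Without windows within 50 kb of an edge, the share was 47.8% with lamin B1 and 12.3% without, a difference of 35.4 points. Without H3K9me3 regions shorter than 100 kb, an alternative chosen after seeing the data, the shares were 43.8% and 11.8%, the difference 31.9 points and the median coverage of domains 28.0%. Within GC bins, over all that held windows with and without lamin B1, the difference was 24.5 points. With chromosomes weighted equally (chosen after seeing the data) it was 31.6 points. The start site ratio of both over lamin B1 only was 0.733 for all annotated genes and 0.506 within GC bins (chosen after seeing the data). Counting any overlap of the gene body, 36.8% of zinc finger genes touched windows with both. The difference between edge and centre was -7.98 points with domains under 50 kb apart joined, and -16.5 points for the first 30 kb against 100 kb or more from an edge. The 8 further alternatives that left out H3K9me3 regions of a single window are not counted here, since the list holds 0 of them.

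No paired analysis was possible because the replicates were merged before regions were called. No replicate was left out for the same reason, and differences between mice, a stricter score and read depth were not examined.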

Other observations

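Windows with both lay unevenly along chromosomes. With each chromosome divided into 10 parts from the centromeric end, both made up 8.30% of windows in the first part, 27.0% in the ninth and 38.0% in the last. In the last part lamin B1 covered 62.8% of windows, and H3K9me3 was called in 60.6% of lamin B1 windows and 17.9% of the others. The share of windows with both in the last part exceeded that in the rest of the chromosome on 17 of 19 chromosomes. GC content was 44.2% in the last part and 41.0% in the first, and its part in this pattern was not tested.

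Among noncoding genes, 35.3% of 9426 long noncoding RNA start sites had H3K9me3 (interval 34.4 to 36.3%), with 2753 in both, 3276 in lamin B1 only, 579 in H3K9me3 only and 2818 in neither. For comparison, 25.7% of protein-coding start sites and 25.7% of all windows had H3K9me3. MicroRNA genes had it at 29.1% of 2053 and small nucleolar RNA genes at 18.2% of 1440. Processed pseudogenes, copied from messenger RNA, had it at 23.5% of 9189, and unprocessed pseudogenes, which arise by duplication, at 11.9% of 2007. Of 218 immunoglobulin V segments, 202 were in neither, 12 in H3K9me3 only and 4 in both. In neither were 30.6% of protein-coding start sites and 53.2% of all windows.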
